A study of Mus musculus with 6 samples.

Results

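The CD200 family was described here as 1 ligand gene, Cd200, and 4 receptor genes, Cd200r1, Cd200r2, Cd200r3 and Cd200r4, in sorted mouse leukaemia cells. The members were taken by symbol from a table of 23608 genes, and all 5 were found. They were picked with the values of this experiment already known, so their levels and fold changes are given as a description and carry no test.

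CD200 is a membrane glycoprotein of the immunoglobulin superfamily carried by B cells, endothelium, neurons and activated T cells. It binds CD200R1, an inhibitory receptor of myeloid cells and mast cells, whose cytoplasmic tyrosines recruit the docking proteins DOK2 and DOK1 and through them the Ras GTPase-activating protein RASA1. Mice also carry short-tailed relatives of CD200R1, encoded by Cd200r2, Cd200r3 and Cd200r4, which pair with the activating adaptor DAP12 (gene Tyrobp). Cd200r3 is best known from basophils and mast cells.

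The cells were an acute myeloid leukaemia driven by AE9a (AML1/ETO 9a), a shortened variant of a fusion oncoprotein, made by retroviral transduction of fetal liver cells and marked by GFP. All of them carried 1 floxed Usp18 allele and UBCER-Cre, a Cre recombinase under the ubiquitin C promoter that is expressed in all tissues and becomes active with tamoxifen. USP18 is a negative regulator of type I interferon signalling, and the experiment asked how the loss of 1 of its alleles changes gene expression in leukaemia cells in vivo. Sick recipients of the transplanted cells were injected with oil (Usp18 +/f) or with tamoxifen (Usp18 +/Δ), and Lin- c-Kit+ GFP cells from their spleens were sorted at 3 days from the first dose. Each group had 3 libraries, called oil 1, 3 and 4 and tamoxifen 1, 2 and 4 after the count columns. Tamoxifen, active Cre and the loss of the floxed allele go together in this design and cannot be told apart. The study worked with young adult mice of both sexes, and the labels give neither age nor sex for single recipients. Whether the libraries of a group share an AE9a line is not stated, and p-values measure the spread between these libraries.

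The libraries held 17118964 to 20741399 counts, so that 3 counts corresponded to 0.145 to 0.177 CPM, counts scaled to a common library size. In the libraries labelled tamoxifen, Usp18 went against the label: CPM of 9.12, 11.0 and 11.2 with oil stood against 15.1, 28.0 and 19.4 with tamoxifen, in column order (log2 fold change 1.0, SE 0.23, edgeR quasi-likelihood test, adjusted p = 0.0739). Counts over whole genes do not show which exons were removed. Of 11614 genes tested by edgeR, 203 were higher and 31 lower in the libraries labelled tamoxifen at an adjusted p under 0.05. Tamoxifen 4 stood apart from the other libraries of its group, with a chi-square per degree of freedom over all genes of 57.2 and 69 against them and 18.4 between them. The fit without tamoxifen 4 called 2278 genes higher and 2024 lower, and each fit without another library called 8 to 16 higher and 0 lower. The progenitor marker Kit was at 440 to 782 CPM, whereas Ptprc (CD45) did not exceed 0.709 CPM, Mpo (myeloperoxidase) did not exceed 0.236 CPM, and Elane and Flt3 were at 0 in all 6 libraries. Mast cell and basophil markers summed to 4580 to 4830 CPM after oil and 5320 to 10200 CPM after tamoxifen, but not every marker was abundant. Il1rl1, Hdc and Ms4a2 had the highest oil means (1655, 1138 and 896 CPM). Mcpt8, Prss34, Mrgprb2 and Tpsb2 had oil means of 0.633, 0.397, 0.366 and 0.237 CPM, and Mrgprb1 was at 0. Among other cell types, erythroid markers summed to 2740 to 7060 CPM, macrophage and dendritic markers to 4.26 to 14.5 CPM, B cell markers to at most 0.878 CPM, neutrophil markers to at most 0.472 CPM and endothelial markers to at most 0.439 CPM. Stromal markers summed to 56.8 to 118 CPM, nearly all of it Dcn, with Col1a2 at 0. Of the T and NK cell markers, Cd3e, Cd8a, Gzma and Prf1 were at 0 in every library, and Nkg7, a cytotoxic granule gene, rose (log2 fold change 4.03, edgeR adjusted p = 0.041). Ms4a1 and Ebf1, which define B cells, and Cdh5 and Emcn, which define endothelium, were at 0 in every library. In bulk samples, fewer cells of a type and less RNA per cell cannot be told apart.

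All 5 genes lie on mouse chromosome 16 (GRCm38, GENCODE M21). The receptors form a row on the plus strand in the order Cd200r1 (44765736 to 44794978), Cd200r4 (44811733 to 44839150), Cd200r2 (44867097 to 44915840) and Cd200r3 (44943678 to 44981380), and the ligand lies on the minus strand at 45382135 to 45409053. The annotated proteins separate the inhibitory receptor from its relatives. After the most hydrophobic 21-residue window, taken as the membrane span, CD200R1 had 67 residues, against 8 in CD200R2, 12 in CD200R3 and 8 in CD200R4. Only CD200R1 carried the asparagine-proline-any residue-tyrosine motif in that tail, 1 copy, whereas basic residues within the window, the kind of residue that pairs receptors with DAP12, numbered 2 in CD200R2, 1 in CD200R3, 1 in CD200R4 and 0 in CD200R1. Over the whole protein, CD200R2 was closest to CD200R4 (82.3% identical residues) and CD200R1 was closest to CD200R4 (73.0%), while CD200R3 was more distant, with 54.2% identity to CD200R2, 49.4% to CD200R4 and 40.3% to CD200R1.

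The promoter sequences of Cd200r2, the 1 receptor gene called lower after tamoxifen, and of the receptor genes on either side of it are shown for comparison. They are the 250 bases before the annotated start in the RefSeq table of GRCm38.p6, all on the plus strand. For Cd200r4 and Cd200r3, capitals mark the bases that are identical between both in their best local alignment, 93 of 107 aligned positions (86.9%). For Cd200r2, capitals mark the identical bases of its best alignment with Cd200r3, which covered only 11 positions. No promoter of Cd200r1 is shown, and the Cd200r4 start in this table lies inside the gene as GENCODE draws it.
Cd200r4, chr16:44820478-44820727: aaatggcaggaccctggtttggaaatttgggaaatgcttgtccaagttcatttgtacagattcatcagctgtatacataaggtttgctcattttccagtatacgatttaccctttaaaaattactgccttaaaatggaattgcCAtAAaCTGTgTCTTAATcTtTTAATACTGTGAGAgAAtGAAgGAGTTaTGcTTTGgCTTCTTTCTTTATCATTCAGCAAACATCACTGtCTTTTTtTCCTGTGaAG
Cd200r2, chr16:44866847-44867096: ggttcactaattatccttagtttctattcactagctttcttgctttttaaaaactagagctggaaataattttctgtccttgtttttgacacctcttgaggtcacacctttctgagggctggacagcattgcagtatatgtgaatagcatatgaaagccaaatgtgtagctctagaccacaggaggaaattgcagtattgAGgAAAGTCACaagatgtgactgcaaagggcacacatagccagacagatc
Cd200r3, chr16:44943428-44943677: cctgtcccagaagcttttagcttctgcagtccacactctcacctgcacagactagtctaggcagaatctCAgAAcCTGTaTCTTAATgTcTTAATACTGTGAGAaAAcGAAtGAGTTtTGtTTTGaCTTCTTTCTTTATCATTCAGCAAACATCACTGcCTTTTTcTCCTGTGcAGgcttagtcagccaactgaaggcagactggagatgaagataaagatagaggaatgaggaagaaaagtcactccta
The block shared by Cd200r4 and Cd200r3 ended directly at the start of Cd200r4 and spanned positions -181 to -75 relative to the start of Cd200r3. A set of 4 short motifs was searched on both strands in these windows and in that of Cd200. The interferon-stimulated response element core GAAANNGAAA, found in 2.98% of 32851 promoter windows, and the STAT-binding GAS core TTCNNNGAA, found in 7.02%, were in none of them. The AP-1 motif TGACTCA, found in 4.46% of windows, was in none either, and the GATA motif GATAA, found in 22.6%, was in all 4. These matches describe the letters of the windows only.

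The ligand Cd200 had 0 counts in all 6 libraries. At 3 counts a library, the limit that a count of 0 allows, its level was below 0.145 to 0.177 CPM, so that receptor transcripts were detected and ligand transcript was not. As several leukocyte and myeloid genes were also at or near 0 in this table (Ptprc, Mpo, Elane and Flt3), the 0 is given as listed. Counting limits of this kind cover counting error only.

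The inhibitory receptor Cd200r1 had 23.4, 28.3 and 23.4 CPM with oil, in the order of the columns (oil 1, 3, 4), and 29.6, 30.5 and 22.1 CPM with tamoxifen (tamoxifen 1, 2, 4), an order kept in all that follows. The ranges overlapped, with the library tamoxifen 4 below every oil library and the other tamoxifen libraries above them. Mean levels were 25.0 ± 2.8 CPM after oil and 27.4 ± 4.63 CPM after tamoxifen (SD, n = 3), a log2 fold change of 0.13 (SE 0.15).

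Among the DAP12-type receptors, Cd200r4 was at 56.7, 80.9 and 60.2 CPM after oil and at 84.4, 65.7 and 63.7 CPM after tamoxifen. Again the ranges overlapped, and 1 library of each group, oil 3 and tamoxifen 1, stood above the rest. The log2 fold change was 0.11 (SE 0.16).

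Cd200r2 was the receptor that was low after tamoxifen. Its raw counts were 101, 131.5 and 94.5 with oil against 35.5, 26.5 and 27.5 with tamoxifen, or 5.68, 6.40 and 4.84 CPM against 1.98, 1.54 and 1.55 CPM. Every tamoxifen library was below every oil library. The mean was 5.64 ± 0.782 CPM after oil and 1.69 ± 0.251 CPM after tamoxifen (SD, n = 3), a log2 fold change of -1.74 (SE 0.24) that left 29.9% of the oil level. Of all 11614 genes, 14 had a fitted change at or below this value, and 4 of those were among the 31 called lower. Cd200r2 was the 1 member called, in the lower direction, where the background was 0.267% of genes called lower, 1.75% called higher and 2.01% called either way. Its groups did not overlap, as those of 25.1% of all tested genes did not. Because the gene was chosen on this contrast, nothing further is read from those calls. The call was lost when any library other than tamoxifen 4 was left out, with the log2 fold change between -1.87 and -1.64.

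Cd200r3, the basophil and mast cell receptor, had the highest CPM of the family, without regard to length. It was at 113, 122 and 98.5 CPM after oil and at 117, 114 and 78.1 CPM after tamoxifen. The ranges overlapped, and tamoxifen 4 held the lowest value of the 6. The log2 fold change was -0.10 (SE 0.16).

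**Figure D1:**
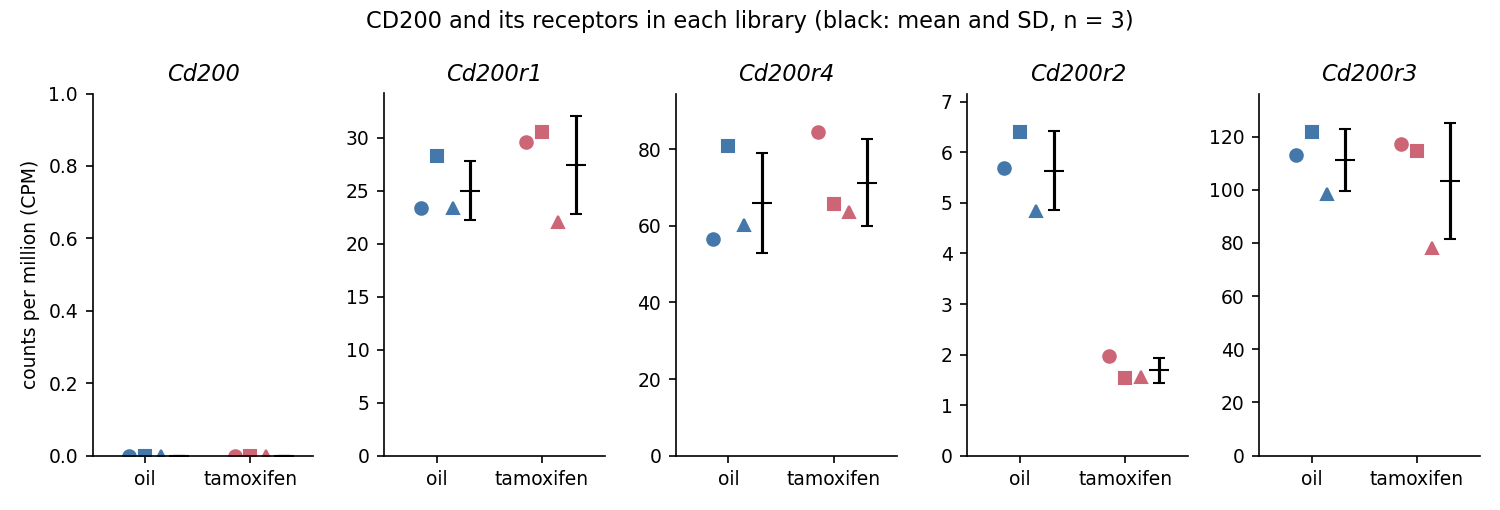
CPM of each family member (vertical axes, each from 0, with its own scale) in the 3 oil and 3 tamoxifen libraries, with circles, squares and triangles for the libraries in column order and black bars for mean and SD. Cd200 is at 0 throughout, Cd200r2 drops from 4.84 to 6.40 CPM after oil to 1.54 to 1.98 CPM after tamoxifen, and the groups of the other 3 receptors overlap.

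Levels of different genes were compared per kilobase of the union of annotated exons. After oil, Cd200r4 was at 32.2 ± 6.41 CPM per kilobase, Cd200r3 at 18.5 ± 1.94, Cd200r1 at 7.47 ± 0.836 and Cd200r2 at 3.22 ± 0.447 (SD, n = 3). No library of 1 receptor reached into the range of the next within the oil group, so neighbours in this order were separated by more than their spread. After tamoxifen the order was the same and the ranges were again separate, at 34.8 ± 5.59, 17.3 ± 3.66, 8.19 ± 1.38 and 0.963 ± 0.143 CPM per kilobase. Without regard to length, Cd200r3 had led. Its annotated exons add up to 5984 bases, against 2045 for Cd200r4, 3348 for Cd200r1 and 1750 for Cd200r2. The union holds all annotated isoforms, so levels per kilobase are understated where only some isoforms are made. The order per kilobase is given for this length only, and lengths of single isoforms were not tried. By mean level per kilobase in the oil group, Cd200r4 was above 84.4% of tested genes, Cd200r3 above 71.6%, Cd200r1 above 45.5% and Cd200r2 above 27.3%.

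**Figure D2:**
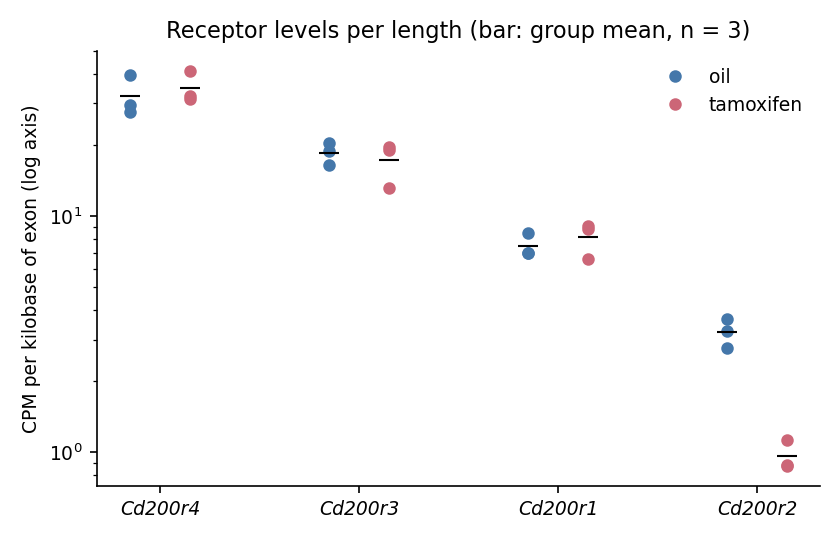
CPM per kilobase of exon (log axis) of the 4 receptors in the oil and tamoxifen libraries, with points for libraries and bars for group means of 3. Cd200r4 leads and Cd200r2 is lowest in both groups, and the distance between Cd200r1 and Cd200r2 widens after tamoxifen.

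A ratio within a library does not depend on its depth. Cd200r3 had 19.9, 19.0 and 20.4 CPM for each CPM of Cd200r2 with oil, against 59.4, 74.6 and 50.5 with tamoxifen. The oil ratios were close together and all tamoxifen ratios were above them. As a share of the summed CPM of the 4 receptors, Cd200r2 took 2.72 ± 0.138% after oil and 0.835 ± 0.106% after tamoxifen (SD, n = 3). Cd200r3 took 53.6 ± 2.89% and 50.5 ± 3.38%, and the sum itself overlapped between groups, at 199, 237 and 187 CPM after oil and 233, 212 and 165 CPM after tamoxifen. Cd200r4 took 31.6% and 35.2% on average, and Cd200r1 took 12.1% and 13.5%.

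The libraries did not move all receptors alike. Against the oil mean on the log2 CPM scale, Cd200r2 was lower by similar amounts in the tamoxifen libraries (-1.45, -1.80 and -1.79), whereas Cd200r1 stood at 0.25, 0.29 and -0.17. Over the 6 libraries, Pearson's r of log2 CPM was 0.755 between Cd200r1 and Cd200r3, 0.703 between Cd200r1 and Cd200r4, and -0.23 between Cd200r1 and Cd200r2. These values describe 6 points that share depth and treatment.

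The genes whose pattern was most like that of Cd200r2 over the 6 libraries, among 11119 genes with a mean of at least 1 CPM, were Zmym2 (r = 0.996), Zfp239 (0.995), Armcx6 (0.995), Uhmk1 (0.992) and Ache (0.992). For Cd200r1 they were 4930469K13Rik (0.995), Taok2 (0.993), Zfp3 (0.992), Arpc5 (0.991) and Mllt3 (0.991). Those of Cd200r4 were led by Tcf23 (0.994) and Hadh (0.991), and those of Cd200r3 by Ulk1 (0.987), which was followed by Fam126a, D8Ertd738e, Zfyve26 and Rab5b. None of these names recurred between receptors, and when single libraries were left out, 0 to 4 of the 5 names of a receptor remained.

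Parts of the receptor transcripts are alike enough that reads could be shared. Cd200r2 and Cd200r4 had 61 identical stretches of 50 bases, 3.59% of those in Cd200r2 and 2.99% of those in Cd200r4, and Cd200r1 and Cd200r4 had 40 (1.16% and 1.96%). The other pairs had 0. How shared reads were counted is not given in the sources used here, so small parts of these levels are uncertain. One other annotated gene, the processed pseudogene Gm17928, lies within Cd200r2 and overlaps none of its exons.

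Genes around the family were listed to see whether the lower Cd200r2 level was shared by its surroundings. Within 1 Mb of a member, 15 other genes were tested and 0 were called by edgeR, beside 2.01% of all tested genes. At that share, 0 calls among 15 genes do not set them apart. DESeq2 and limma-voom also called 0, and 1 gene, Usf3, had an unadjusted p under 0.05 in edgeR. Usf3 had a log2 fold change of -0.29 (SE 0.09, edgeR adjusted p = 0.151), with every tamoxifen library below the oil libraries. On the Cd200r1 side, the nearest tested gene was Gtpbp8, a GTP-binding protein gene, at 20.8 ± 1.05 CPM after oil and 17.5 ± 2.07 CPM after tamoxifen (log2 fold change -0.25, SE 0.13, edgeR adjusted p = 0.315). Its tamoxifen libraries were all below its oil libraries, and over all tested genes the groups did not overlap for 25.1%. On the other side of the receptors, Slc35a5, a solute carrier gene, had a log2 fold change of 0.15 (SE 0.14, edgeR adjusted p = 0.536), and Atg3, an autophagy enzyme gene that starts beside it, had one of -0.19 (SE 0.14, edgeR adjusted p = 0.456). Beyond Cd200, BC016579 was at 6.02 ± 0.816 CPM after oil and 10.8 ± 5.98 CPM after tamoxifen (log2 fold change 0.84, SE 0.37, edgeR adjusted p = 0.249). Btla, a lymphocyte inhibitory receptor gene between the receptors and Cd200, was at 0 in all 6 libraries, as Cd200 was. Without tamoxifen 4, 5 of these genes were called by edgeR (Atg3, BC016579, Gm4737, Naa50 and Usf3). That fit called 2278 genes higher and 2024 lower over the whole table, so these calls are not read as a trait of the region.

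**Figure D3:**
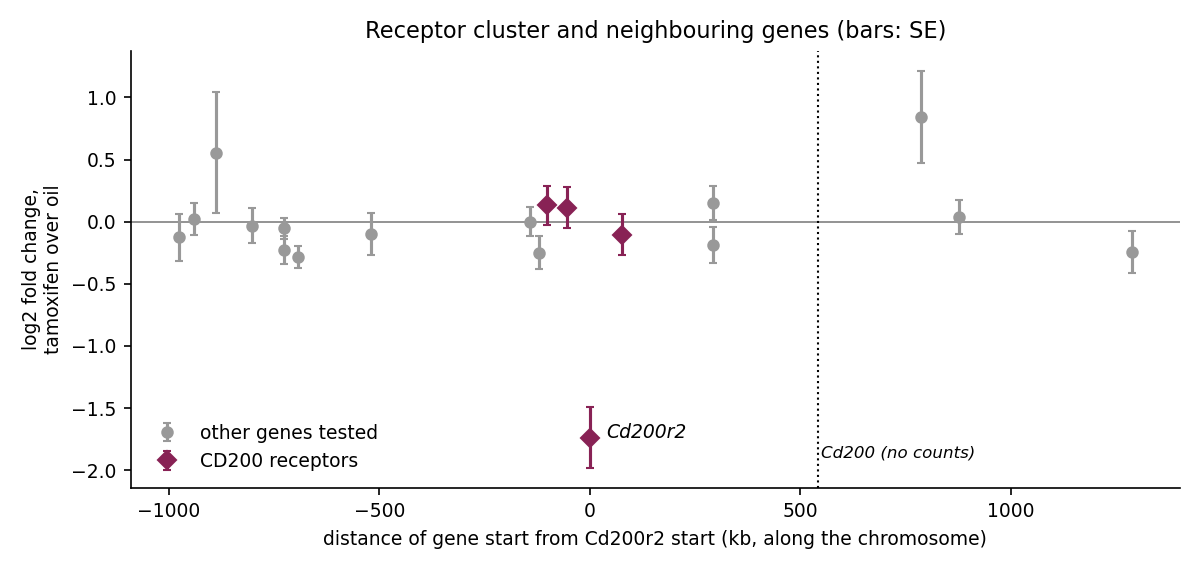
Log2 fold change of tamoxifen over oil (vertical axis, bars are SE) of the receptors and of 15 other tested genes, against the distance of each gene's start from that of Cd200r2 in kilobases. Cd200r2 lies at -1.74, whereas the other receptors lie between -0.10 and 0.13 and the dotted line marks Cd200, which has no counts.

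The genes that carry the CD200R1 signal were all present. Of 6 listed, 6 were tested and 0 were called by edgeR, DESeq2 or limma-voom, and 2 had an unadjusted p under 0.05 in edgeR. Over all tested genes, edgeR called 2.01% in either direction at an adjusted p under 0.05. No such share was taken for unadjusted p, here or for the lists below, so those counts are a description only. The median log2 fold change was -0.02, beside 0.000119 over all tested genes. The inositol phosphatase gene Inpp5d had the highest CPM, at 641 ± 40.6 CPM after oil and 645 ± 43.2 CPM after tamoxifen (log2 fold change 0.01, SE 0.09). Rasa1, the Ras GTPase-activating protein, was at 108 ± 3.90 and 104 ± 4.93 CPM, and Crkl, an adaptor, at 169 ± 1.58 and 160 ± 8.88 CPM (SD, n = 3). The docking protein gene Dok2 was at 24.0, 24.0 and 26.0 CPM after oil and at 31.5, 53.3 and 30.9 CPM after tamoxifen. All tamoxifen values of Dok2 were above the oil values, but with a log2 fold change of 0.64 (SE 0.21) it did not pass the edgeR test (adjusted p = 0.16). The adaptor gene Nck1 went the other way, at 33.6 ± 1.18 and 26.9 ± 4.5 CPM with every tamoxifen library below the oil libraries (log2 fold change -0.32, SE 0.14, edgeR adjusted p = 0.234). Without tamoxifen 4, edgeR called Dok1, Dok2 and Nck1, in a fit that called 2278 genes higher and 2024 lower.

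On the activating side, the DAP12 gene Tyrobp was low in all libraries. CPM of 1.01, 0.776 and 1.13 with oil stood against 2.09, 7.62 and 1.49 with tamoxifen. The tamoxifen libraries were all above the oil libraries and spread widely, and the log2 fold change of 1.93 (SE 0.63) did not pass the edgeR test (adjusted p = 0.158). Of the 9 adaptor and kinase genes listed, 8 were tested, and 5 had an unadjusted p under 0.05 in edgeR, with no share over all genes taken. At an adjusted p under 0.05, 1 rose and 0 fell, beside 1.75% of all tested genes called higher and 0.267% lower. The median log2 fold change was 0.97, beside 0.000119 over all tested genes, with 8 positive and 0 negative. The gene that rose was Plcg2, phospholipase C gamma 2, a lipid-cleaving enzyme downstream of SYK. It was at 0.563, 0.679 and 1.85 CPM after oil and at 5.71, 11.0 and 5.69 CPM after tamoxifen (log2 fold change 2.85, SE 0.49, edgeR adjusted p = 0.0399). The kinase gene Syk was at 14.5 ± 1.20 and 26.2 ± 5.45 CPM (log2 fold change 0.85, SE 0.17, edgeR adjusted p = 0.0525), and the adaptor gene Lat2 at 9.69 ± 1.36 and 42.0 ± 31.5 CPM (2.11, SE 0.54, edgeR adjusted p = 0.0914). Highest in CPM were Grb2, Vav1 and Pik3r1, with log2 fold changes of 0.14, 0.13 and 0.28 that did not pass the test. Zap70, the T cell relative of Syk, was at 0 in all libraries. DESeq2, which called 713 genes higher and 231 lower over the whole table, called Plcg2, Syk, Lat2 and Tyrobp, whereas limma-voom called none of this list.

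While Cd200 itself was undetected, transcripts of other inhibitory ligands were detected. Of 14 listed, 11 were tested, and 0 were called by edgeR or limma-voom and 1, Cd274, by DESeq2, while 3 had an unadjusted p under 0.05 in edgeR. The edgeR share over all tested genes was 2.01% at an adjusted p under 0.05, and none was taken for unadjusted p. The median log2 fold change was 0.06. Lgals9 (galectin 9) was at 582 ± 1.41 and 605 ± 64.8 CPM, Cd47, the ligand of SIRPA, at 382 ± 16.2 and 456 ± 84.4 CPM, and Cd24a at 327 ± 17.7 and 339 ± 63.3 CPM (oil and tamoxifen, SD, n = 3). The log2 fold changes were 0.06, 0.26 and 0.05. Cd274, the PD-L1 gene, was at 12.0, 14.0 and 15.3 CPM after oil and at 34.0, 42.3 and 16.5 CPM after tamoxifen. Tamoxifen 4 lay close to the oil range, and the log2 fold change of 1.16 (SE 0.31) had an edgeR adjusted p of 0.1. Vsir, the VISTA gene, was at 18.9 ± 1.08 and 13.9 ± 1.44 CPM, with every tamoxifen library below the oil libraries (-0.44, SE 0.13, edgeR adjusted p = 0.135).

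Of 26 other genes listed as inhibitory or paired myeloid receptors or, as with Laptm5, regulators of receptors, 9 were abundant enough to test. Of these, 6 had an unadjusted p under 0.05 in edgeR, and the share of all tested genes at that threshold was not taken. At an adjusted p under 0.05, 1 rose and 0 fell, beside 1.75% of all tested genes called higher and 0.267% lower. The median log2 fold change was 0.91, beside 0.000119 over all tested genes, with 9 positive and 0 negative. The gene that rose was Clec4e (Mincle), an activating lectin receptor, at 3.38, 4.27 and 4.79 CPM after oil and 38.1, 72.5 and 15.6 CPM after tamoxifen (log2 fold change 3.34, SE 0.52, edgeR adjusted p = 0.033). Laptm5, a lysosomal protein gene, led by level at 892 ± 38.3 and 1300 ± 312 CPM (0.54, SE 0.17, edgeR adjusted p = 0.142), followed by the collagen receptor gene Lair1 at 68.5 ± 7.23 and 81.4 ± 20.0 CPM (0.25, SE 0.17, edgeR adjusted p = 0.423). Sirpa, the CD47 receptor gene, was at most 1.70 CPM in any library. By DESeq2, with 713 genes called higher and 231 lower over the whole table, Clec4d, Clec4e, Havcr2 and Laptm5 were called.

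Mast cell and basophil genes were examined because Cd200r3 is a receptor of those cells. Of 17 listed genes 16 were tested, and 10 had an unadjusted p under 0.05 in edgeR. As no share over all genes was taken at that threshold, the 10 are a description only. At an adjusted p under 0.05, 2 rose and 0 fell, beside 1.75% of all tested genes called higher and 0.267% lower. The median log2 fold change was 1.27, beside 0.000119 over all tested genes, with 15 positive and 1 negative. Fcer1a, the alpha chain of the high-affinity IgE receptor, was at 68.2, 98.0 and 85.7 CPM after oil and at 355, 553 and 188 CPM after tamoxifen (log2 fold change 2.12, SE 0.35, edgeR adjusted p = 0.0381). Tpsb2, a mast cell tryptase, was at 0.237 ± 0.108 and 4.44 ± 3.88 CPM (log2 fold change 4.16, SE 0.75, edgeR adjusted p = 0.0402). Its oil values, 0.113, 0.291 and 0.309 CPM, were near the level of 3 counts, so it passed the filter through its tamoxifen libraries. Its call is therefore not used as support. Mrgprb2, counted among the positive genes, was also low after oil, at 0.281, 0.0969 and 0.720 CPM. The 3 genes of the list with the highest CPM did not pass the edgeR test. Of these 3, DESeq2 called Hdc, in a fit that called 713 genes higher and 231 lower over the whole table. Il1rl1, the IL-33 receptor, was at 1655 ± 31.9 and 2241 ± 559 CPM (0.44, SE 0.18, edgeR adjusted p = 0.224), Hdc, the histamine-forming enzyme, at 1138 ± 76.6 and 1697 ± 450 CPM (0.58, SE 0.19, edgeR adjusted p = 0.157), and Ms4a2, the IgE receptor beta chain, at 896 ± 29.6 and 872 ± 53.0 CPM (-0.04, SE 0.09, edgeR adjusted p = 0.807). The summed level of all 17 listed genes was 4580 to 4830 CPM after oil and 5320 to 10200 CPM after tamoxifen, with only Mrgprb1 at 0. The calls of Plcg2, Clec4e, Fcer1a and Tpsb2 were each lost when any library other than tamoxifen 4 was left out, and in limma-voom. The part of cell composition in the Cd200r2 level was not tested.

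**Figure D4:**
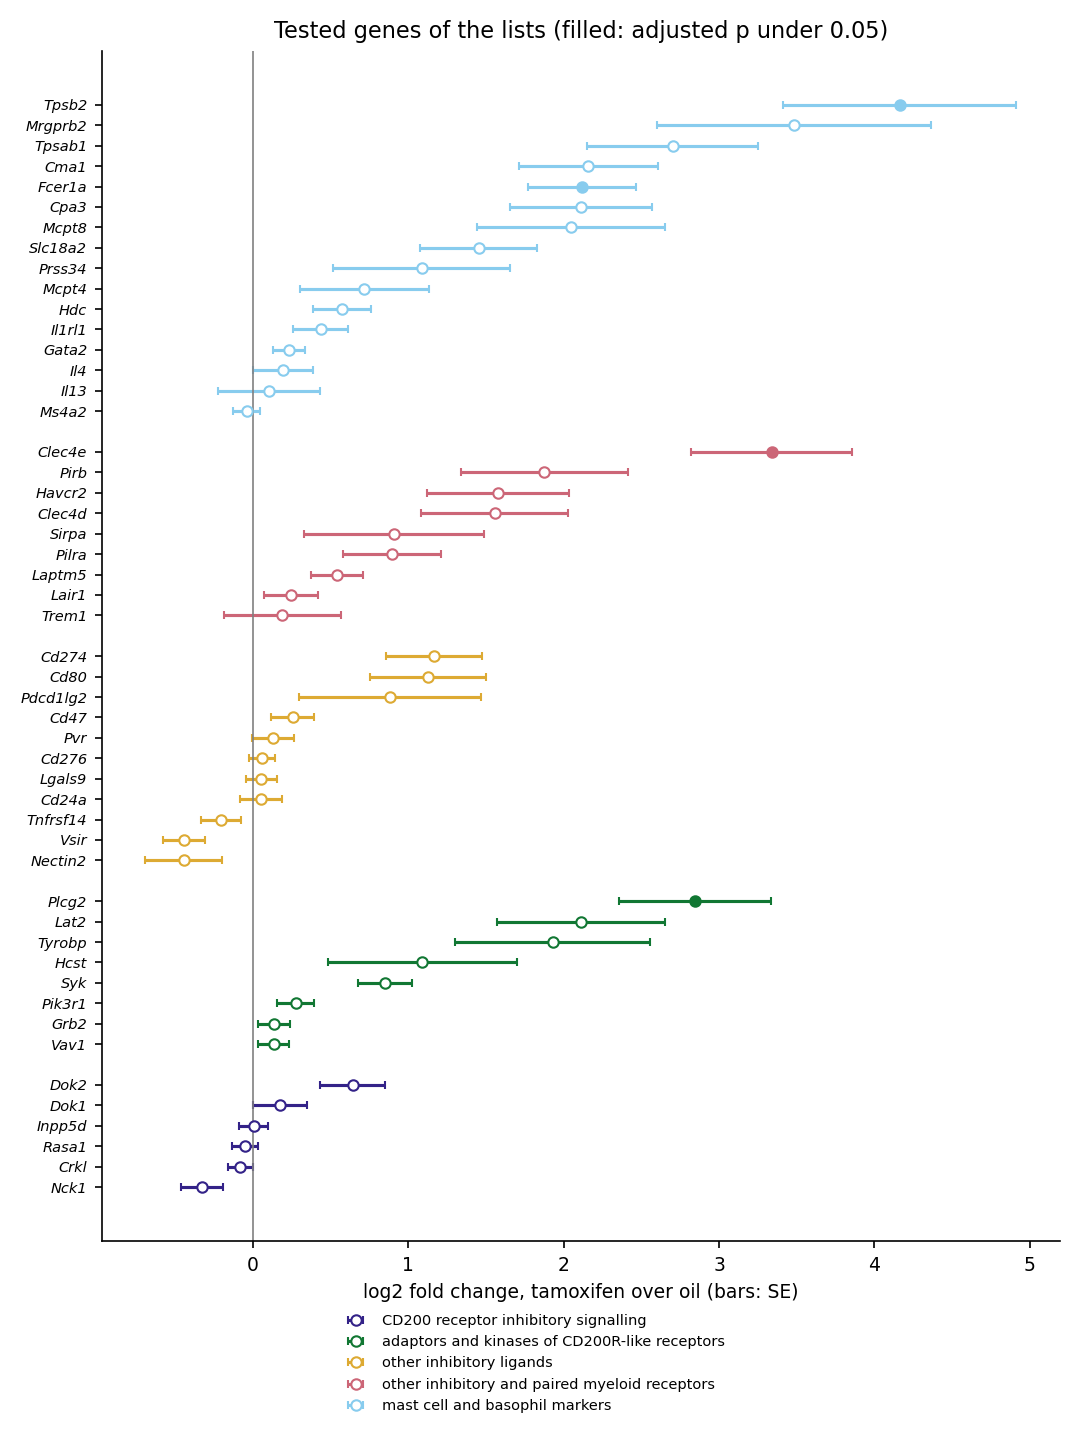
Log2 fold change of tamoxifen over oil (horizontal axis, bars are SE) of the tested genes of 5 lists, coloured by list, with filled points for an edgeR adjusted p under 0.05. Plcg2, Clec4e, Fcer1a and Tpsb2 are the filled points, and the CD200R1 signalling genes lie on both sides of 0, from -0.32 (Nck1) to 0.64 (Dok2).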

How the data were processed

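RNA from sorted AE9a cells of 3 oil-treated and 3 tamoxifen-treated recipients was sequenced as bulk libraries. Per the labels and the study's methods, the authors aligned reads to mm10 with STAR and used DESeq2. The counting program, its strand setting and the annotation are not given in the sources used here. The deposited table holds estimated counts per gene symbol, of which 26.6% of values are not whole and all fall in steps of 0.5, so reads or fragments were counted in part. Per-library totals give the depth, and at 3 libraries a group the precision is that of the standard errors. Of the symbols, 97.6% were in GENCODE M21, whose GRCm38 coordinates are the mm10 assembly, and 26 symbols were date-like.

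Counts were rounded and scaled by TMM, weakly expressed genes were filtered, and 11614 genes were fitted with the quasi-likelihood test of edgeR 4.0.16 (R 4.3.3) over both groups, with Benjamini-Hochberg adjustment over all of them. The test was checked on simulated data. CPM used the TMM-scaled totals, log2 CPM a prior count of 2. Column names carry library numbers that differ from those of the sample titles for 1 library in each group, and these columns were used as replicates of their group. No library repeated another. Promoter windows came from RefSeq, and protein features from GENCODE transcripts, aligned with Biopython 1.88. The members and gene lists were chosen with earlier results of these data known. Named genes are the members, the nearest tested gene on each side, the 5 most alike in pattern, the 3 most abundant of each list and the genes that passed the test. The genes Dok2, Nck1, Vsir, Tyrobp, Syk, Lat2, Cd274, Sirpa, Btla, Zap70 and Usf3 were added after their values were seen. Alternatives were other scalings, no filter, unrounded counts, DESeq2 1.42.0, limma-voom (limma 3.58.1), the replicate number as a block and leaving out each library. An earlier batch and the ATAC-seq libraries were not analysed here.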

Additional observations from a re-analysis of the deposited data

How the results depend on the processing

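The log2 fold change of Cd200r2 stayed between -1.87 and -1.58 over 13 alternatives and was called in 7 of them. Without tamoxifen 4 it was called, and without any one of the other 5 libraries it was not (-1.87 to -1.64 over the 6). With the replicate number as a block (replicate block) it was -1.58 and 0 members were called. When single libraries were left out, the count of members called ran from 0 to 1. The numbers 1 and 4 shared by both groups did not pair the libraries (correlations of deviations -0.127 and 0.0616), and the blocked fit had 1 residual degree of freedom. Cd200r1 stayed positive in all 13 alternatives (0.0497 to 0.265). Cd200r3 ran from -0.204 to 0.064 and changed sign only without tamoxifen 4, and Cd200r4 from -0.0286 to 0.328, changing sign only without tamoxifen 1.

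Counts of called genes depended on the tool and on single libraries, and the cause was not tested. Against 203 higher and 31 lower, DESeq2 called 713 and 231, limma-voom 48 and 6, and the fit with no low-count filter 372 and 61, and leaving out 1 library gave 8 to 2278 and 0 to 2024, the high values without tamoxifen 4. In the 4 signalling, ligand and receptor lists, 2 genes were called, against 9 by DESeq2, 0 by limma-voom, 5 with no filter and 0 to 23 without single libraries. In the mast cell and basophil list, 2 were called, against 4 with upper-quartile scaling, 8 by DESeq2, 0 by limma-voom, 7 with no filter, 5 with the replicate block and 0 to 12 without single libraries. Genes near the family numbered 0 called, and 0 to 5 without single libraries. A count of 0 for Cd200 allows a level of up to 3 counts in a single library at these depths.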

Other observations

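Lilrb4a, an inhibitory immunoglobulin-like receptor gene of myeloid cells, did not pass the filter for weakly expressed genes and was not tested. CPM of 0, 0.0969 and 0 with oil stood against 4.45, 12.3 and 0.332 with tamoxifen, in column order, and the gene was chosen after its values were seen. Cd34, a progenitor antigen, was at 9.95 ± 1.67 CPM after oil and 96.3 ± 48.3 CPM after tamoxifen (SD, n = 3, log2 fold change 3.28, edgeR adjusted p = 0.0232), whereas Kit was at 447 ± 6.29 and 627 ± 169 CPM (0.49, edgeR adjusted p = 0.202).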
